A study of Homo sapiens with 30 samples.

Results

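The comparison set U87 cells kept for 14 days without interferon-γ (IFN-γ) after 14 days of exposure against cells at the end of that exposure. It used 5 of the 30 samples of the study, namely the libraries labelled D28WO (n = 3) and those labelled D14 (n = 2) in the U87 table. They were chosen by label. A pair of U87 columns carries the same name, so neither could be matched to a sample, and D14 therefore had replicates 2 and 3 only. U87 is an established human glioblastoma line, grown here in DMEM with serum, and RNA of U87 and of a further glioblastoma line, U251, was sequenced without IFN-γ (Untreated), after 3, 14 or 28 days of it (D3, D14 and D28) and after withdrawal (D28WO). The labels give D14 as treated for 14 days, and D28WO as collected on day 28 with no treatment after withdrawal at day 14. The labels write the dose as 1 µL/mL in one field and 1 µg/mL in another, while the methods text gives a lower dose in ng/mL. Untreated cells are labelled as day 3 although the methods start at day 0. The identity of the U87 stock was not checked after it was obtained, and this line is known to have been confused with others, so the values hold for the stock used. Replicates were described as independent biological triplicates. The values are TPM, read counts scaled by gene length and by library total, and they keep no sequencing depth. A gene listed at 0 therefore has no lowest detectable level, and no interval for counting error can be given. Values of each library are given in the order of the replicate numbers, 2 and 3 at D14 and 1, 2 and 3 at D28WO.

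IFN-γ binds a receptor of the chains IFNGR1 and IFNGR2, and the kinases JAK1 and JAK2 then signal to the nucleus, where gamma-activated sites (GAS) in DNA are bound. Among the genes induced early are IRF1 and CIITA, transcription factors that in turn drive antigen presentation, guanylate-binding proteins, chemokines and tryptophan catabolism. Factors such as SOCS1 switch the pathway off, and transcripts of most targets decline once the cytokine is gone.

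Interferon-responsive genes went against both labels. IRF1 was at 136, 130.1 and 134 TPM in Untreated, 445 and 450.1 TPM at D3, 134 and 109.8 TPM at D14, 539, 457 and 443 TPM at D28 and 527, 545 and 457 TPM at D28WO. IDO1, the enzyme that opens tryptophan catabolism and a classical IFN-γ target, was at 0.239, 0 and 0 TPM in Untreated, 81.3 and 85.9 TPM at D3, listed at 0 in both D14 libraries, and at 95.5, 107 and 130.4 TPM at D28 and 135, 137 and 135 TPM at D28WO. The libraries labelled as exposed for 14 days thus lay near the Untreated libraries, and those labelled as withdrawn lay near the exposed libraries of D3 and D28, with no overlap between D14 and D28WO. In the separately normalized U251 table IRF1 was at 288, 321 and 292 TPM at D14 and 609, 663 and 588 TPM at D28WO, so for this gene the labelled withdrawal was the higher group there too. Whether D14 lay near Untreated in U251 is not shown here. Whether samples were exchanged, or whether the cells were in these states, was not tested. In what follows D14 and D28WO name the labels of the libraries, and "higher" and "lower" always mean D28WO relative to D14. All 5 libraries are affected, so no result can be given without them, and values at Untreated and D28 are set beside the main ones where they bear on a group of genes.

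**Figure D1:**
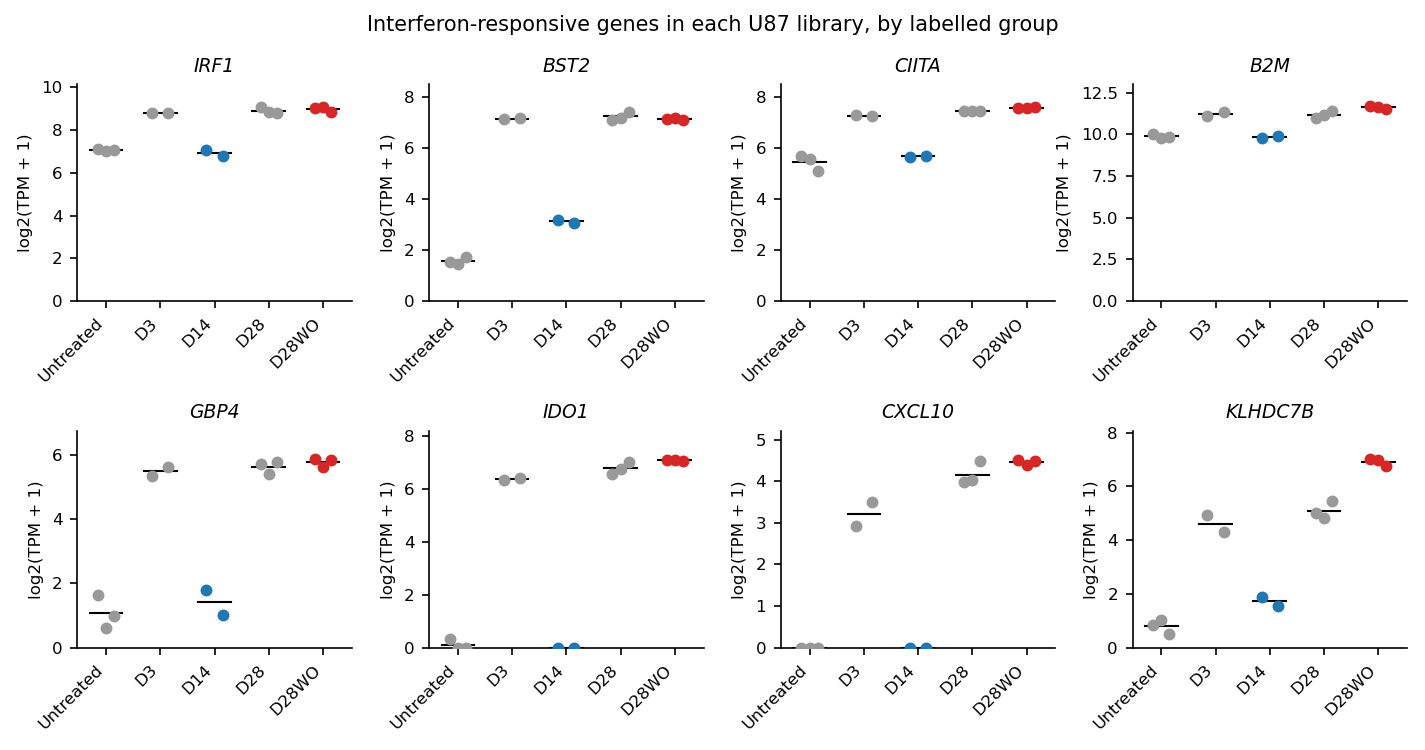
TPM on a log2(TPM + 1) axis (vertical) of 8 interferon-responsive genes in each of the 13 uniquely named U87 libraries, by labelled group (horizontal). Each point is a library, the line is the mean of the group, D14 is blue and D28WO red. The D14 points lie nearer the Untreated points than those of D3 or D28, and the D28WO points lie near or above those of D3 and D28.

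The question put by the comparison is which transcripts differ between the labelled withdrawal and its starting point. Of 61471 genes in the table, 23278 averaged 0.5 TPM or more in the 5 libraries compared and were tested on log2(TPM + 1) with limma, with p-values adjusted by Benjamini-Hochberg over all of them. A gene is called when its adjusted p is under 0.05 and its log2 fold change is over 1 in size. That scale understates the change of genes with low values. In this comparison 1493 genes (6.41% of those tested) were called higher and 808 (3.47%) lower, and the median of all genes tested was 0.07. Quantile normalization moved this split to 1140 higher and 1137 lower, so the balance of directions rests on the scaling. Of the genes called higher, all but 6 had every D28WO library above both D14 libraries, and all 808 called lower had every D28WO library below both. By the adjusted p alone 14.5% of all genes tested were higher and 11.5% lower, and at an unadjusted p under 0.05 21.0% and 16.4%. Every D28WO library lay above both D14 libraries in 30.6% of all genes tested and below both in 24.3%, and these shares are the measure for the counts of lists. A gene low at D14 can pass the filter through the D28WO libraries alone, and such genes stand among the calls higher, as genes low at D28WO stand among the calls lower. Protein-coding genes made up 931 of the calls higher and 504 of the calls lower, and long non-coding RNAs 429 and 232. The 2 D14 libraries correlated at 0.965 over log2(TPM + 1), the D28WO libraries at 0.966 to 0.967, and libraries of different groups at 0.927 to 0.938.

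Markers of the line were checked next. VIM, the intermediate filament of mesenchymal cells, was at 1254 and 1309 TPM at D14 and 984, 1057 and 1024 TPM at D28WO, and CD44, a hyaluronan receptor, at 553 and 580.2 TPM at D14 and 471, 519 and 574 TPM at D28WO. SOX2, a factor of glioma stem cells, was at 0 and 0.296 TPM at D14 and 0, 0 and 0.170 TPM at D28WO, so this defining marker was at or near 0, and it was not tested. The levels of VIM and CD44 were high in all 5 libraries. Of 5 markers of the line 4 were tested and 0 called. Of those tested only VIM had every D28WO library below both D14 libraries, against 24.3% of all genes tested. Of 7 T and NK cell markers, 2 passed the filter on low values, CD3E was listed at 0 in all 5 libraries, CD2 was the most abundant, and the summed level was 2.90 and 3.83 TPM at D14 and 3.09, 2.43 and 2.33 TPM at D28WO. Of 8 markers of macrophages and microglia, 2 passed, and AIF1, C1QA and TYROBP were listed at 0 in all 5. CD14, which was not tested, went the other way from the sum. It was listed at 0 in both D14 libraries and was at 0.557, 0.604 and 0.556 TPM at D28WO. The summed level of that list was 52.1 and 57.3 TPM at D14 and 12.8, 18.7 and 25.7 TPM at D28WO, nearly all of it from CSF1R, the receptor of colony-stimulating factor 1, which fell from 50.8 and 52.8 to 11.2, 16.7 and 22.9 TPM (log2 fold change -1.61, SE 0.24, adjusted p = 5.7e-04). All 5 fibroblast markers passed, and their sum was 648 and 669.6 TPM at D14 and 334, 335 and 401 TPM at D28WO, with COL1A2 as the most abundant and COL1A1 as the member called lower. DCN, a proteoglycan of this list, was at 29.1 and 17.4 TPM at D14 and 31.3, 32.4 and 33.0 TPM at D28WO, above D14 in every D28WO library. Of 5 epithelial markers, 4 passed, with sums of 12.6 and 15.3 TPM at D14 and 7.76, 7.96 and 9.12 TPM at D28WO and CLDN4 as the most abundant on average over the 5. KRT19 and EPCAM were called lower, whereas CLDN4 and CDH1 were higher in every D28WO library than at D14, short of a call. KRT19 passed the filter through the D14 libraries alone, and CDH1 through the D28WO libraries alone. Of 6 endothelial markers 4 passed, with KDR as the most abundant, and their sum was 10.4 and 10.1 TPM at D14 and 7.22, 5.99 and 10.03 TPM at D28WO. All of these sums but that of the T and NK cell markers were lower in every D28WO library. For the endothelial markers the sum was lower by little in D28WO replicate 3. What part such shifts have in the results was not tested.

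The libraries also differed in composition. Genes above 0 numbered 26301 and 27098 at D14 and 28203, 27719 and 28649 at D28WO. Mitochondrially encoded genes held 0.666 and 0.675% of the TPM at D14 and 0.515, 0.526 and 0.523% at D28WO, and cytosolic ribosomal protein genes held 3.58 and 3.40% and 3.02, 3.10 and 2.87%. The 100 most abundant genes held 6.44 and 6.40% and 6.13, 6.30 and 5.96%. More genes were thus above 0 in each D28WO library, with smaller mitochondrial and ribosomal shares, and the part of these differences in the results was not tested.

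**Figure D2:**
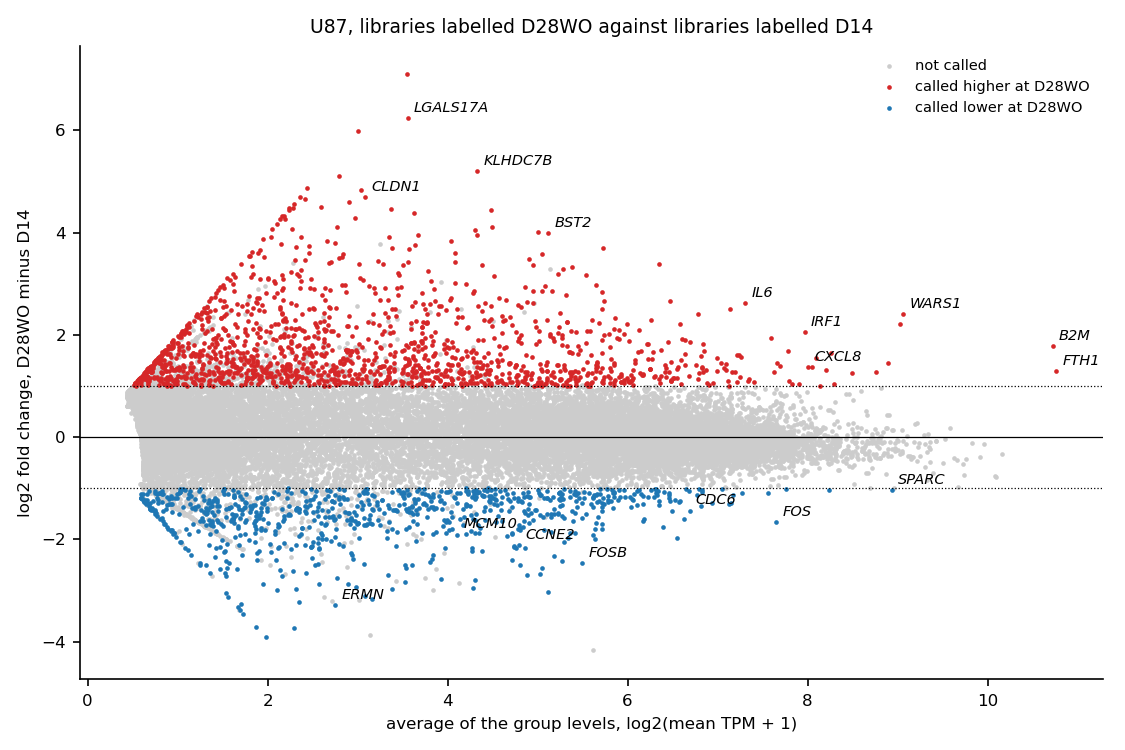
Log2 fold change of D28WO over D14 (vertical) against the average of the group levels on a log2(mean TPM + 1) scale (horizontal), with a point for each gene tested. Genes called higher are red and genes called lower blue, dotted lines mark changes of 1 on the log2 scale, and abundant genes such as B2M and FTH1 are among those called higher.

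The steepest rises and falls were ranked on log2(TPM + 1). Where a group was at or near 0, the rank rests on this pseudocount, and another pseudocount can change the members. Among the 10 called genes with the steepest rises, taken from those with no overlap that averaged 5 TPM or more in the higher group, was KLHDC7B, known to respond to interferon. It encodes a kelch-domain protein and rose from 2.69 and 1.95 TPM at D14 to 127, 126 and 109 TPM at D28WO (log2 fold change 5.20, SE 0.24, adjusted p = 1.6e-07). LGALS17A, a galectin pseudogene, was at 0.749 and 0 TPM at D14 and 113, 88.1 and 97.8 TPM at D28WO. IDO1, listed at 0 at D14, was given with its values in the check of the labels. The acute-phase gene SAA1, whose copy SAA2 can share its reads, was at 0 and 0.352 TPM at D14 and 30.2, 38.8 and 49.9 TPM at D28WO, and CLDN1, which encodes a tight junction protein, was at 1.08 and 0.278 TPM at D14 and 48.3, 43.1 and 33.2 TPM at D28WO. For CLDN1 the level at D28 was only 3.21, 2.75 and 3.83 TPM, so it stood apart from interferon-responsive genes such as IRF1, for which D28 lay near D28WO. The others of these 10 were the pseudogene GBP1P1, which can share reads with GBP1, the noncoding RNAs MIR3945HG, ENSG00000258581 and ENSG00000273272, and RN7SL2, a copy of the signal recognition particle RNA. RN7SL2 was listed at 0 in both D14 libraries and at 22.2, 21.1 and 32.5 TPM at D28WO, yet it was also present in Untreated, at 8.23, 8.56 and 13.3 TPM. IDO1, LGALS17A, SAA1 and RN7SL2 passed the filter through the D28WO libraries alone, so their calls add no support.

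The 10 steepest falls held 1 protein-coding gene, ERMN, which encodes an actin-binding protein of oligodendrocytes and fell from 17.4 and 21.2 TPM to 0.207, 1.66 and 1.82 TPM (log2 fold change -3.28, SE 0.46, adjusted p = 3.6e-04). LINC02697 was at 13.2 and 14.5 TPM at D14 and 0.436, 1.83 and 0 TPM at D28WO, and ENSG00000235578 at 26.2 and 25.02 TPM at D14 and 2.39, 1.30 and 2.28 TPM at D28WO. The signal recognition particle pseudogenes RN7SL499P and RN7SL615P were at 15.4 and 16.9 TPM and 9.62 and 10.5 TPM at D14. At D28WO RN7SL615P was listed at 0 in all 3 libraries and RN7SL499P in 2 of them. RN7SL615P thus passed the filter through the D14 libraries alone. Reads of such copies are shared with near-identical genes, so the values of the RN7SL copies are uncertain. The other 5 were the unnamed genes ENSG00000263986, ENSG00000250271, ENSG00000290883, ENSG00000267305 and ENSG00000279364, each at or near 0 in every D28WO library.

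Some genes of the signalling chain were higher, while the receptor chains IFNGR1 and IFNGR2 and the kinase JAK1 were not called. Of 9 genes of the list 8 had every D28WO library above both D14 libraries, against 30.6% of all genes tested, and the median was 1.11. The other was IFNGR2, with every D28WO library below both D14 libraries and a log2 fold change of -0.30. The receptor chains, JAK1 and STAT2, and further on KYNU, POLE, CCND3, E2F1, CDT1, CXCL3 and CD55, are named after their values were seen. IRF1, with the values above, had a log2 fold change of 2.06 (SE 0.11, adjusted p = 2.6e-07). IRF9, which binds DNA in a complex with STAT2, was at 27.7 and 33.4 TPM at D14 and 70.9, 77.3 and 73.8 TPM at D28WO, and the kinase JAK2 at 26.8 and 22.3 TPM at D14 and 59.6, 50.8 and 55.7 TPM at D28WO. STAT2 was at 60.2 and 59.2 TPM at D14 and 131, 131 and 128 TPM at D28WO. In each of these 4 genes every D28WO library lay above both D14 libraries. Of 7 tested genes among further interferon-related transcription factors, 4 were called higher and 0 lower, with a median log2 fold change of 1.31 against 0.07 for all genes tested, of which 6.41% were called higher and 3.47% lower. BATF2, a partner of IRF1, rose from 4.97 and 3.96 TPM to 91.8, 90.9 and 94.7 TPM (log2 fold change 4.10, SE 0.15, adjusted p = 2.7e-08). ETV7, an ETS repressor, was at 0.633 and 0.751 TPM at D14 and 14.4, 11.5 and 16.8 TPM at D28WO, IRF5 at 1.62 and 2.06 TPM at D14 and 10.9, 14.7 and 15.1 TPM at D28WO and IRF7 at 22.5 and 12.1 TPM at D14 and 41.7, 42.1 and 43.5 TPM at D28WO. IRF3, which is regulated mainly by phosphorylation, was at 119 and 131 TPM at D14 and 136, 116 and 132 TPM at D28WO, and its groups overlapped.

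Of 11 genes that limit cytokine signalling 1 was called higher and 0 lower, with a median of 0.01. SOCS2 was that member, at 1.30 and 2.50 TPM at D14 and 8.14, 7.94 and 3.49 TPM at D28WO (log2 fold change 1.34, SE 0.42, adjusted p = 0.0377), and its call was lost in several settings. SOCS1, which blocks JAK kinases, was at 18.03 and 19.1 TPM at D14 and 32.7, 26.7 and 36.3 TPM at D28WO, above D14 in every D28WO library and past the adjusted p but short of the fold, with a log2 fold change of 0.74 (adjusted p = 0.00612). USP18, which blocks the type I receptor, was at 27.5 and 29.9 TPM at D14 and 32.5, 31.5 and 33.2 TPM at D28WO (adjusted p = 0.365). The phosphatase PTPN11 was at 116 and 122 TPM at D14 and 119, 119 and 121 TPM at D28WO, with overlapping groups.

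Promoter sequence was set beside these levels as a description. In the 250 bases before each start in RefSeq (GRCh38.p14), both strands were searched for the GAS letters TTCNNNGAA, for GAAANNGAA, the core of the interferon-stimulated response element (ISRE core), and for the E2F letters TTTNGCGC. The ISRE core is shorter than the full element and so matches more often, and its letters can overlap those of GAS. Of 27305 promoters, 6.78% held the GAS letters, 7.06% the ISRE core and 1.54% the E2F letters. Among the 13348 tested genes that matched a promoter, these shares were 5.78, 6.06 and 2.39%. Among the 859 called higher they were 7.68, 11.4 and 1.05%. Among the 454 called lower they were 6.61, 5.95 and 3.52%. In the list of antiviral genes 20 of 31 matched promoters held the ISRE core, and in that of class I genes 5 of 12. The core also stood in 17 of 49 promoters of replication-dependent histones, whose calls went both ways. In the list of the receptor and JAK-STAT signalling 0 of 8 held it, and the GAS letters stood in 0 of 12 promoters of class I genes, 0 of 5 of the immunoproteasome and 7 of 31 of the antiviral list. The promoters of IRF1 (chr5:132490778-132491023, minus strand) and of the adhesion molecule ICAM1 (chr19:10270870-10271092, plus strand) are shown with GAS letters in capitals, and those of CXCL10 (chr4:76023498-76023747, minus strand) and IFI27 (chr14:94110486-94110677, plus strand) with ISRE core letters in capitals. The stretches run from the base -250 relative to the start and end before annotated exons. They were chosen after values and matches were seen, and a match is a description of the letters only. In IFI27 a GAS match overlaps both ISRE core matches.
IRF1: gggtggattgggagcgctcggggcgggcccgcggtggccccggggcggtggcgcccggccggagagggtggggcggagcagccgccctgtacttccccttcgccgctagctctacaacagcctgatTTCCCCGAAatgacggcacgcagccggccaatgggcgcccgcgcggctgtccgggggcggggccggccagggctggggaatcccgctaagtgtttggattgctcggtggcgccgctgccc
ICAM1: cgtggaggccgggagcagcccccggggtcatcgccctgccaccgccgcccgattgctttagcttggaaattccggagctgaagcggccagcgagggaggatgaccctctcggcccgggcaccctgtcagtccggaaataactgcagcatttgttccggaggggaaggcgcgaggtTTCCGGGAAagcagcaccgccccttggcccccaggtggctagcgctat
CXCL10: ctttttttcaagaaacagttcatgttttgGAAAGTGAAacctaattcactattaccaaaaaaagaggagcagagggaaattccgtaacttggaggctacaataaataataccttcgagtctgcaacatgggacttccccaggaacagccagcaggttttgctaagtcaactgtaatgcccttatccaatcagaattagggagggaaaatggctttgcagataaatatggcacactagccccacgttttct
IFI27: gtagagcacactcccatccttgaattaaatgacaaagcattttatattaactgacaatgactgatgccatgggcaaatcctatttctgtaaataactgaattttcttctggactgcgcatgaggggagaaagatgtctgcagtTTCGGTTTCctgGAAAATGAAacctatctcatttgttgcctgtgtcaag

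Class I antigen presentation, which shows peptides to CD8 T cells, was called higher in 10 of 16 genes and lower in 0, with a median of 1.04, a count that includes HLA-G, which passed the filter through the D28WO libraries alone. B2M, the light chain of all class I molecules, was at 871 and 951 TPM at D14 and 3344, 3169 and 2891 TPM at D28WO (log2 fold change 1.78, SE 0.12, adjusted p = 2.1e-06). It was among the most abundant genes of these libraries. TAP1, which carries peptides into the endoplasmic reticulum, was at 59.8 and 51.8 TPM at D14 and 171, 183 and 169.7 TPM at D28WO, HLA-B at 290.1 and 266 TPM at D14 and 689, 684 and 654 TPM at D28WO, and HLA-F at 79.8 and 88.9 TPM at D14 and 262, 244 and 267 TPM at D28WO. All D28WO libraries lay above all D14 libraries in these genes, and reads of HLA genes can be shared within the family. Class II presentation, which shows peptides to CD4 T cells, had 7 of 15 members called higher and 0 lower, a median of 0.90, and all 15 past the adjusted p in the same direction. CIITA, the regulator of the class II genes, was at 49.7 and 50.9 TPM at D14 and 191, 191 and 192 TPM at D28WO (log2 fold change 1.91, SE 0.14, adjusted p = 3.3e-06). The invariant chain CD74 was at 297 and 274 TPM at D14 and 780.2, 788 and 782 TPM at D28WO, HLA-DQA1 at 51.1 and 42.7 TPM at D14 and 242, 261 and 250.9 TPM at D28WO, and HLA-DOB, a brake on peptide exchange, at 0.847 and 1.30 TPM at D14 and 22.8, 22.3 and 22.1 TPM at D28WO. HLA-DPA1, at 271 and 293 TPM at D14 and 482, 559 and 541 TPM at D28WO, passed the adjusted p and missed the fold by little, with a log2 fold change of 0.90. CIITA and HLA-DPA1 were thus already present at D14, near 50.8, 47.1 and 32.9 TPM and 261, 222 and 295 TPM in Untreated.

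The immunoproteasome cuts proteins into peptides suited to class I molecules. Its 5 genes all passed the adjusted p, and 2 of them also passed the fold. PSMB9 was at 71.6 and 68.1 TPM at D14 and 179, 189 and 171 TPM at D28WO (log2 fold change 1.35, SE 0.10, adjusted p = 3.9e-06) and PSMB10 at 116 and 101 TPM at D14 and 229.7, 258 and 233 TPM at D28WO. PSMB8 was at 87.7 and 74.6 TPM at D14 and 153, 163 and 152 TPM at D28WO, with a log2 fold change of 0.94. The activator subunits PSME1 and PSME2 had log2 fold changes of 0.86 and 0.82. The fold limit, and not the direction, therefore separated these 5 genes, whose D28WO libraries all lay above D14.

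Guanylate-binding proteins are GTPases that attack the vacuoles of intracellular pathogens. Their list, which also held IRGM, had 5 of 7 tested genes called higher, 0 lower and a median of 2.66. GBP4 rose from 2.49 and 1.03 TPM to 58.0, 49.2 and 56.5 TPM (log2 fold change 4.38, SE 0.29, adjusted p = 2.1e-06). GBP5, which assembles inflammasomes, was at 3.27 and 4.46 TPM at D14 and 82.3, 81.8 and 72.6 TPM at D28WO, GBP3 at 7.11 and 6.16 TPM at D14 and 71.6, 63.6 and 66.0 TPM at D28WO, and the more abundant GBP1 and GBP2 at 31.7 and 36.6 TPM at D14 and 213, 219 and 232 TPM at D28WO and at 49.8 and 48.3 TPM at D14 and 193, 199.6 and 174 TPM at D28WO. These copies lie side by side on chromosome 1 and can share reads. All 10 genes of the apolipoprotein L and PARP list were called higher, with a median of 1.76. APOL3, a membrane-lysing effector, was at 15.9 and 17.8 TPM at D14 and 139, 139 and 139 TPM at D28WO (log2 fold change 2.97, SE 0.11, adjusted p = 2.4e-08), and APOL4 at 0.996 and 0.313 TPM at D14 and 29.8, 23.0 and 28.9 TPM at D28WO. APOL1 was at 12.3 and 10.4 TPM at D14 and 113, 111 and 112 TPM at D28WO. PARP14, an ADP-ribosyltransferase, was at 25.9 and 25.3 TPM at D14 and 107, 108 and 101 TPM at D28WO. Within D28WO both APOL1 and APOL3 varied little from library to library. APOL genes are paralogs, so reads can be split among them.

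Of 39 antiviral interferon-stimulated genes, 20 were called higher and 0 lower, and 31 were higher by the adjusted p alone (median 1.12). IFI27, a mitochondrial and nuclear envelope protein, rose from 4.76 and 2.92 TPM to 96.3, 112 and 99.6 TPM (log2 fold change 4.45, SE 0.34, adjusted p = 4.9e-06). BST2, which tethers budding virions to the cell surface, was at 8.09 and 7.32 TPM at D14 and 138, 141 and 133 TPM at D28WO (log2 fold change 3.99, SE 0.12, adjusted p = 6.3e-09). XAF1, a pro-apoptotic factor, was at 9.10 and 19.2 TPM at D14 and 174, 199.9 and 178 TPM at D28WO, and RSAD2, which makes a chain-terminating nucleotide, at 0.234 and 1.06 TPM at D14 and 8.9997, 11.6 and 8.57 TPM at D28WO. The DNA sensor IFI16 was at 143 and 137 TPM at D14 and 189, 199.8 and 192 TPM at D28WO. The entry inhibitor IFITM3 was at 245 and 198 TPM at D14 and 248, 277 and 289.7 TPM at D28WO. Neither IFI16 nor IFITM3 passed the fold. The log2 fold changes of BST2 and IFI27 in U251 were 0.28 and 0.57, and neither was called there. The difference between the lines was not tested, since their tables were normalized separately.

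Chemokines that bind CXCR3 attract activated T cells. All 3 passed the filter on low values through the D28WO libraries alone, so no count of calls is drawn from them. CXCL10 was listed at 0 in both D14 libraries and was at 21.9, 20.1 and 21.7 TPM at D28WO. The D28WO libraries held CXCL11 at 12.9, 12.7 and 7.44 TPM and CXCL9 at 0.805, 1.40 and 1.23 TPM, and the D14 libraries listed both at 0. No fold is given for them, and a median over the list would rest on the pseudocount. In Untreated all 3 were also listed at 0 in every library, so D14 and Untreated could not be told apart for these genes.

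Chemokines for neutrophils and monocytes had 11 of 12 tested genes called higher, 0 lower and a median of 2.11. That count and median include CCL7 and CCL8, which passed the filter through the D28WO libraries alone and add no support. CXCL8, the main attractant of neutrophils, was at 167 and 150.4 TPM at D14 and 405, 456 and 378 TPM at D28WO (log2 fold change 1.37, SE 0.11, adjusted p = 9.1e-06). CXCL2 was at 130.0 and 112 TPM at D14 and 311, 372 and 317 TPM at D28WO, and reads may be shared with its copies CXCL1 and CXCL3. CXCL5 was at 1.96 and 1.85 TPM at D14 and 37.6, 37.6 and 34.6 TPM at D28WO, and CCL20, which binds CCR6 on lymphocytes and dendritic cells, at 5.14 and 3.17 TPM at D14 and 45.2, 66.3 and 51.6 TPM at D28WO (log2 fold change 3.43, SE 0.31, adjusted p = 1.8e-05). CCL2, the attractant of monocytes, was at 24.3 and 23.0 TPM at D14 and 79.0, 81.9 and 77.6 TPM at D28WO, and CCL8 at 0.418 and 0 TPM at D14 and 17.5, 13.8 and 14.7 TPM at D28WO. CCL7 stood at 19.4, 17.9 and 17.5 TPM at D28WO and was listed at 0 in both D14 libraries. For CXCL5 and CCL20 the level at D28 was lower than at D28WO, at 10.4, 13.1 and 9.04 TPM and 13.9, 16.7 and 14.2 TPM. CCL7 was at 2.28, 0.950 and 2.33 TPM at D28. In U251, where 23102 genes were tested, 429 (1.86%) were called higher and 1315 (5.69%) lower in the comparison of the same labels. There 5 of 8 tested chemokines of this list were called lower (CXCL2, CXCL3, CXCL8, CCL2 and CCL20) and 0 higher, with a median of -1.34. CXCL8 there was at 143, 172 and 153 TPM at D14 and 29.9, 32.0 and 28.2 TPM at D28WO, a log2 fold change of -2.34, and no test of the difference between the lines was run.

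Among cytokines and growth factors of inflammation, 12 of 18 tested were called higher and 0 lower, with a median of 1.55. IL6 was at 68.2 and 57.4 TPM at D14 and 377, 441 and 356 TPM at D28WO (log2 fold change 2.62, SE 0.13, adjusted p = 2.2e-07). IL1B was at 188 and 158 TPM at D14 and 505, 607 and 516 TPM at D28WO and IL1A at 15.97 and 12.5 TPM at D14 and 106, 113 and 91.5 TPM at D28WO. CSF3, the growth factor of neutrophils, was at 111 and 84.9 TPM at D14 and 332, 415 and 379 TPM at D28WO. All of these were present at D14 and lay higher in every D28WO library. IL32, a cytokine without a mouse counterpart, rose from 8.36 and 5.80 TPM to 125, 128 and 127 TPM, and IL18BP, a soluble inhibitor of IL-18, from 9.41 and 11.6 TPM to 81.7, 76.99 and 88.4 TPM. IL6 stood at 170.0, 164 and 168 TPM and IL1A at 25.3, 21.5 and 23.9 TPM at D28, below every D28WO library.

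**Figure D3:**
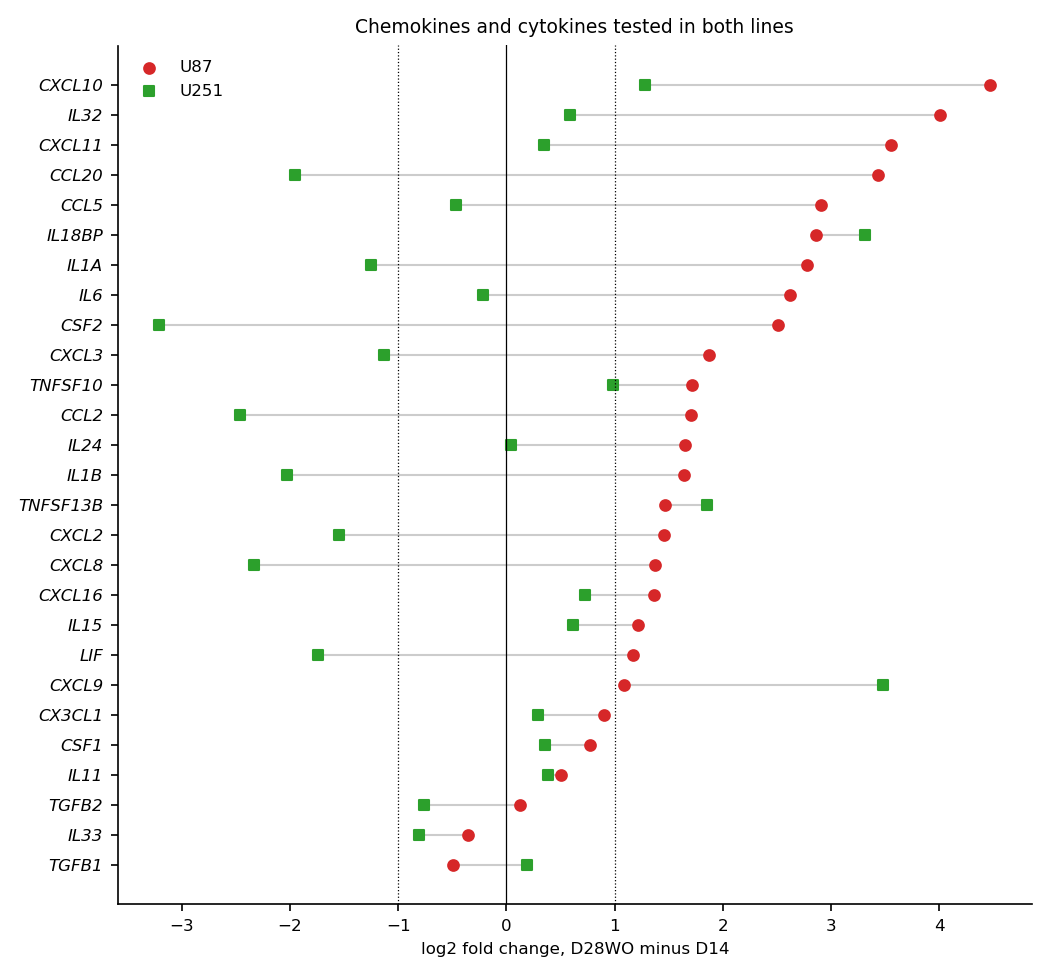
Log2 fold change of D28WO over D14 (horizontal, from log2(TPM + 1) values) for the 27 chemokine and cytokine genes tested in both lines (vertical), with U87 as red circles and U251 as green squares. Dotted lines mark changes of 1. In U87 25 of the 27 genes lie above 0, and in U251 13 lie below 0. The medians of all genes tested were 0.07 in U87 and -0.08 in U251, so the U251 count is not read as a result. The CXCR3 ligands passed the filter in U87 through the D28WO libraries alone, so their place above 0 adds no support. The lines were normalized separately and the difference between them was not tested. Genes listed at 0 at D14 in U87, such as CXCL10, lie where the pseudocount puts them.

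NF-κB subunits and their feedback targets were called higher in 9 of 18 genes and lower in 0 (median 0.94). ICAM1, which binds leukocyte integrins, was at 32.3 and 34.7 TPM at D14 and 156, 170.0 and 178 TPM at D28WO (log2 fold change 2.29, SE 0.13, adjusted p = 7.2e-07). VCAM1, a further adhesion molecule, was at 1.91 and 0.999 TPM at D14 and 7.36, 7.90 and 10.6 TPM at D28WO. NFKBIZ, a nuclear coactivator of IL6 transcription, was at 62.4 and 57.0 TPM at D14 and 206, 228 and 209.5 TPM at D28WO, TNFAIP2 at 63.5 and 65.0 TPM at D14 and 199, 204 and 181 TPM at D28WO, and the mitochondrial dismutase SOD2 at 255 and 211 TPM at D14 and 555, 572 and 535 TPM at D28WO. Every D28WO library lay above both D14 libraries in these 5 genes. TNIP1, an inhibitor of the pathway, was at 184 and 165 TPM at D14 and 179, 197 and 199 TPM at D28WO, and its groups overlapped.

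Complement, the plasma cascade that marks targets for lysis, had 9 of 13 genes called higher and 0 lower, with a median of 1.43. C3, its central component, was at 218 and 158 TPM at D14 and 482, 460.3 and 440.2 TPM at D28WO (log2 fold change 1.30, SE 0.18, adjusted p = 3.0e-04). C2, a protease of the classical pathway, was at 2.28 and 2.34 TPM at D14 and 37.5, 41.3 and 45.7 TPM at D28WO (log2 fold change 3.68, SE 0.22, adjusted p = 9.0e-07). CFB, its counterpart in the alternative pathway, was at 27.8 and 22.1 TPM at D14 and 142, 113 and 131 TPM at D28WO, and the C1 inhibitor SERPING1 at 18.5 and 15.04 TPM at D14 and 74.6, 72.3 and 88.8 TPM at D28WO. C4B was at 6.90 and 4.05 TPM at D14 and 41.5, 38.1 and 42.1 TPM at D28WO, and its copy C4A can share its reads. CD59, which blocks the membrane attack complex, was at 318 and 314 TPM at D14 and 179, 206 and 202 TPM at D28WO, a log2 fold change of -0.69 (adjusted p = 7.5e-04) that passed the adjusted p and missed the fold. Other inhibitors on the list went the other way, since SERPING1 and CD55 were called higher.

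Checkpoint ligands and tryptophan enzymes were mixed. Of 15 tested, 5 were called higher and 0 lower, with a median of 0.31. Among them IDO1 and LGALS9 passed the filter through the D28WO libraries alone and add no support. The other calls were WARS1, KYNU and TNFRSF14. Beside IDO1, WARS1, the tryptophanyl-tRNA synthetase, was at 238 and 224 TPM at D14 and 1293, 1271 and 1133 TPM at D28WO (log2 fold change 2.41, SE 0.08, adjusted p = 1.4e-08), and KYNU, which breaks down kynurenine, was at 156 and 144 TPM at D14 and 340.1, 325 and 306 TPM at D28WO. TNFRSF14, the ligand of BTLA, was at 25.2 and 20.3 TPM at D14 and 112, 111 and 107 TPM at D28WO, and LGALS9 at 0.111 and 0.106 TPM at D14 and 4.52, 6.52 and 3.42 TPM at D28WO, which is well below its 25.3, 23.7 and 17.4 TPM at D28. CD274, which encodes PD-L1, was at 44.5 and 46.4 TPM at D14 and 66.2, 68.9 and 69.4 TPM at D28WO, with a log2 fold change of 0.58 (adjusted p = 0.0353) and every D28WO library above D14. NT5E, which makes adenosine, was at 268 and 259.6 TPM at D14 and 248, 266 and 266 TPM at D28WO, with overlapping groups. Among 11 tested death receptors, caspases and gasdermin, 2 were called higher (1 to 3 over the settings) and 0 lower (median 0.62). CASP1, the protease of the inflammasome, was at 18.5 and 16.4 TPM at D14 and 74.97, 76.1 and 73.8 TPM at D28WO (log2 fold change 2.05, SE 0.13, adjusted p = 1.8e-06). CASP4, a sensor of bacterial lipopolysaccharide, was at 109 and 86.7 TPM at D14 and 196, 200.02 and 192 TPM at D28WO, a log2 fold change of 1.01 that stood just past the limit and fell short of it with median-ratio size factors. The death receptor TNFRSF10B, at 115 and 122 TPM at D14 and 185, 189 and 175 TPM at D28WO, was not called.

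Genes of DNA replication went the other way. Of 19 genes for licensing and firing of origins, 8 were called lower and 0 higher, and 18 were lower by the adjusted p alone, with a median of -0.98 and 6 to 12 called lower over the settings. MCM10, which helps the helicase to start, fell from 29.0 and 32.7 TPM to 4.51, 6.41 and 14.02 TPM (log2 fold change -1.90, SE 0.36, adjusted p = 0.00263). ORC1, of the complex that marks origins, was at 25.5 and 32.0 TPM at D14 and 5.74, 5.995 and 10.3 TPM at D28WO (log2 fold change -1.87, SE 0.24, adjusted p = 2.2e-04). GINS2, a helicase cofactor, was at 75.9 and 68.9 TPM at D14 and 18.2, 21.1 and 29.4 TPM at D28WO, and the loader CDC6 at 159.7 and 176 TPM at D14 and 53.8, 55.3 and 77.03 TPM at D28WO. The helicase subunits MCM5 and MCM7 were at 208 and 196 TPM at D14 and 75.6, 99.9 and 143 TPM at D28WO and at 199.5 and 193 TPM at D14 and 98.3, 99.4 and 116 TPM at D28WO, past the adjusted p and short of the fold, with log2 fold changes of -0.97 and -0.91. In MCM10, MCM5 and the cyclin gene CCNE2, D28WO replicate 1 was the lowest and replicate 3 the highest library of its group, and all 3 lay below D14. Fewer cells in S phase and less of these RNAs per cell cannot be told apart in bulk RNA. In U251 15 of 19 genes of this list were called lower and 0 higher (median -1.13).

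**Figure D4:**
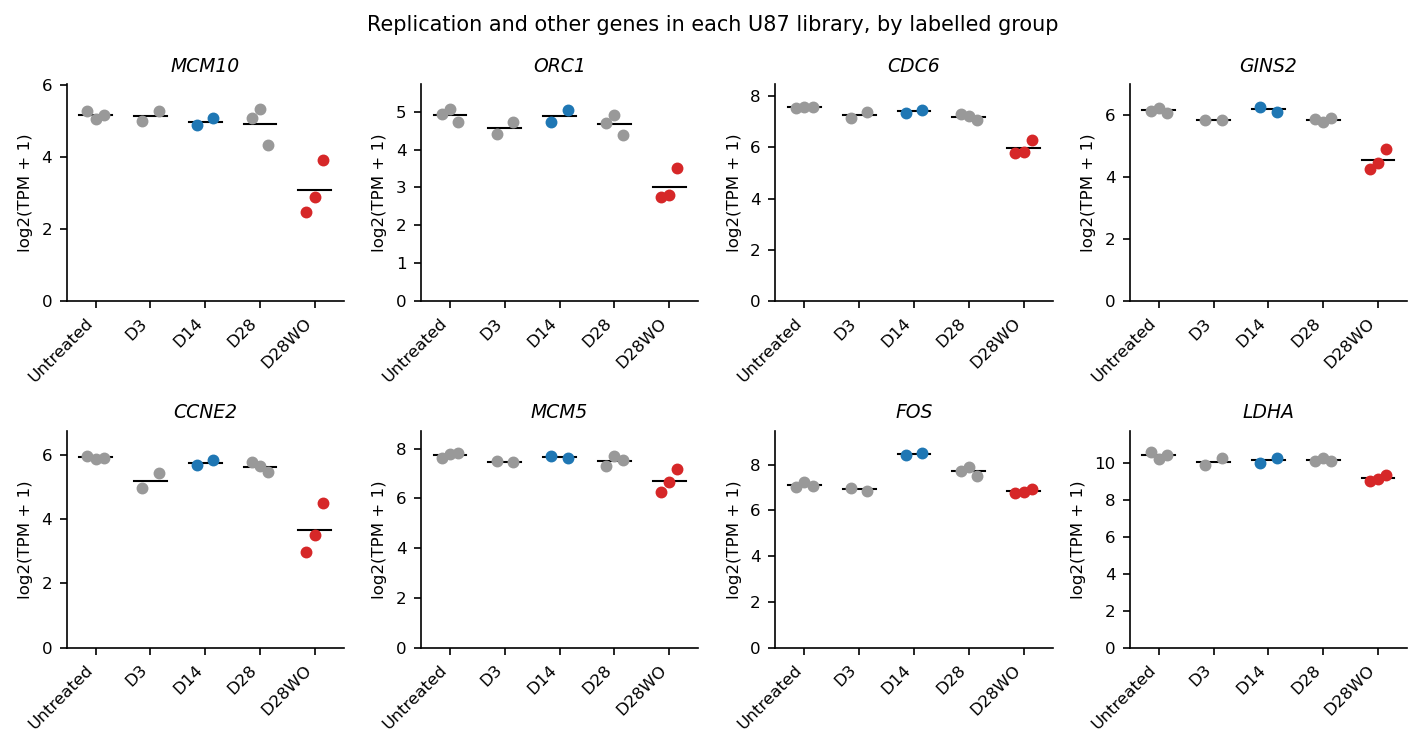
Log2(TPM + 1) (vertical) of 8 genes in the 13 uniquely named U87 libraries by labelled group (horizontal), each point a library and each line the mean of a group, with D14 in blue and D28WO in red. The replication genes MCM10, ORC1, CDC6, GINS2, CCNE2 and MCM5 were lower in every D28WO library than in any other library shown. FOS was highest at D14, and LDHA lowest at D28WO.

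Enzymes that supply and join DNA building blocks were called lower in 5 of 19 genes (3 to 9 over the settings) and higher in 0 (median -0.84). The 5 were FEN1, LIG1, POLA1, POLD1 and POLE. FEN1, the nuclease that trims Okazaki fragments, was at 134 and 136 TPM at D14 and 48.5, 52.0 and 69.9 TPM at D28WO (log2 fold change -1.25, SE 0.14, adjusted p = 7.4e-05), and the primase partner POLA1 at 39.1 and 48.4 TPM at D14 and 18.2, 15.1 and 24.1 TPM at D28WO. RRM2, which makes deoxynucleotides, was at 255 and 274 TPM at D14 and 112, 134 and 164 TPM at D28WO, past the adjusted p and short of the fold. Of 15 G1 cyclins and E2F genes, 5 were called lower (CCND3, CCNE2, E2F1, E2F2 and E2F8) and 1 higher (median -0.56). CCNE2, the cyclin that drives entry into S phase, was at 51.0 and 56.8 TPM at D14 and 6.85, 10.4 and 21.9 TPM at D28WO (log2 fold change -2.11, SE 0.33, adjusted p = 7.1e-04). The activator E2F2 was at 11.7 and 13.8 TPM at D14 and 1.53, 3.20 and 6.32 TPM at D28WO and the repressor E2F8 at 43.1 and 40.8 TPM at D14 and 12.6, 10.9 and 15.1 TPM at D28WO. E2F7, a repressor of the same family, went the other way, at 20.9 and 26.5 TPM at D14 and 66.8, 53.6 and 64.3 TPM at D28WO (log2 fold change 1.34, SE 0.25, adjusted p = 0.00212). CDK4 was at 284 and 264 TPM at D14 and 231, 243 and 245 TPM at D28WO and CCND1 at 219 and 237 TPM at D14 and 230.2, 257 and 255 TPM at D28WO, and neither was called. Of 15 homologous recombination and Fanconi genes 8 were lower and 1 higher by the adjusted p alone, and 3 had every D28WO library above and 12 below both D14 libraries (median -0.71). RAD54L, a motor of homologous recombination, was at 53.9 and 51.2 TPM at D14 and 18.02, 22.5 and 25.8 TPM at D28WO, and FANCA, of the Fanconi complex, at 77.3 and 87.1 TPM at D14 and 33.1, 37.1 and 46.3 TPM at D28WO.

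The E2F letters stood in 4 of 16 matched promoters of the licensing list and in 7 of 33 of the S phase genes from Seurat, but in 0 of 13 of the homologous recombination and Fanconi list and 0 of 21 of the mitotic list, both with medians below 0, and in 11 of 49 of the histone list, against 2.39% of the promoters of all genes tested and 1.54% of all promoters. Promoters of CDT1 (chr16:88803539-88803788, plus strand) and E2F1 (chr20:33686386-33686635, minus strand) are shown with these letters in capitals. Both genes were chosen after their values and matches were seen, and the match is a description of the letters only. CDT1, the partner of CDC6 in helicase loading, was at 51.9 and 68.0 TPM at D14 and 21.2, 27.4 and 37.9 TPM at D28WO. The call of CDT1 ended with a replicate block and in leave-one-out fits. E2F1, the activator of the family, was at 90.8 and 86.8 TPM at D14 and 31.6, 37.7 and 49.3 TPM at D28WO.
CDT1: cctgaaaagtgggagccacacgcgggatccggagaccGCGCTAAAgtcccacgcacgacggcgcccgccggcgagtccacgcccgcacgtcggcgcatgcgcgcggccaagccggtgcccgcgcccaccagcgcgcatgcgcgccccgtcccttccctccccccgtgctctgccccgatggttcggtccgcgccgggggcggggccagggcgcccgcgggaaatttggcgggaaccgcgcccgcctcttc
E2F1: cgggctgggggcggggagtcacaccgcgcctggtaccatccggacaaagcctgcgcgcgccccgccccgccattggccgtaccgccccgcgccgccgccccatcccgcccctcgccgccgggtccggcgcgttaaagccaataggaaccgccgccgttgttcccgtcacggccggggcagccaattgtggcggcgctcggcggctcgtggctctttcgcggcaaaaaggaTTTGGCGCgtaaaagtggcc

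Of 43 S phase genes, 16 were called lower and 0 higher (median -0.91), among them CDCA7, a chromatin factor, at 74.4 and 83.2 TPM at D14 and 15.5, 17.3 and 32.8 TPM at D28WO. Medians of mitotic lists lay nearer 0, a difference that was not tested. Of 54 G2/M genes 3 were called lower and 0 higher (median -0.41), and 36 were lower by the adjusted p alone. Without the fold limit 20 of 27 mitotic kinases, cyclins and kinetochore genes were lower, and with it 2 were called lower and 0 higher (median -0.44). The count of G2/M genes called lower ranged from 0 to 3 over the settings. KIF20A, a kinesin of cytokinesis, was at 115 and 119.6 TPM at D14 and 52.2, 47.7 and 61.0 TPM at D28WO (log2 fold change -1.12, SE 0.13, adjusted p = 1.1e-04), and CDC20, the activator of the anaphase-promoting complex, at 184 and 139 TPM at D14 and 73.9, 70.3 and 91.2 TPM at D28WO, a call that ended with a replicate block. CDCA3 and GTSE1 were at 103 and 127 TPM at D14 and 49.2, 49.5 and 68.1 TPM at D28WO and at 69.4 and 84.3 TPM at D14 and 33.2, 35.6 and 43.6 TPM at D28WO. The call of GTSE1 also ended with a replicate block, and CDC20, CDCA3 and GTSE1 each lost theirs in leave-one-out fits. CCNB1 was at 305 and 267 TPM at D14 and 229, 239 and 235 TPM at D28WO, AURKA at 149 and 165 TPM at D14 and 147, 142 and 139 TPM at D28WO, and the proliferation marker MKI67 at 87.5 and 90.0 TPM at D14 and 55.5, 58.8 and 79.0 TPM at D28WO. None of these last 3 was called, although every D28WO library lay below both D14 libraries. No CDK inhibitor of the 4 tested was called with limma, and 1 was higher and 1 lower at an unadjusted p under 0.05. CDKN1A, which encodes p21, was at 165 and 153 TPM at D14 and 182, 201 and 179 TPM at D28WO with a log2 fold change of 0.23 (adjusted p = 0.0467), while in U251 its log2 fold change was -1.78. Of 18 p53 targets, 2 were called higher and 0 lower (median 0.43). GDF15, a stress cytokine, was at 89.6 and 81.5 TPM at D14 and 259.7, 284 and 244 TPM at D28WO (log2 fold change 1.61, SE 0.16, adjusted p = 2.8e-05). SESN2, a sensor of leucine, was at 61.9 and 51.1 TPM at D14 and 159, 173 and 155 TPM at D28WO, and it is also a target of ATF4.

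Histone genes that are transcribed in S phase were divided. Of 54 tested, 7 were called lower and 3 higher (H2AC6, H3C4 and H4C14), with a median of -0.46, and over the settings 2 to 7 were called lower and 1 to 6 higher. H3C4 passed the filter through the D28WO libraries alone, and H2BC7 and H2BC13, both called lower, through the D14 libraries alone. H2AC16 was at 5.998 and 8.68 TPM at D14 and 0.984, 0 and 0.937 TPM at D28WO. Its call ended with a pseudocount of 0.1, with a replicate block and in further settings. H2BC7 was at 3.77 and 5.68 TPM at D14 and 1.03, 0 and 0 TPM at D28WO. H2AC6, whose transcripts can also be polyadenylated, was at 29.0 and 23.9 TPM at D14 and 65.1, 65.9 and 66.6 TPM at D28WO (log2 fold change 1.29, SE 0.11, adjusted p = 9.1e-06). The near-identical copies H2AC18 and H2AC19 exchanged levels between libraries. H2AC18 was at 83.4 and 77.7 TPM at D14 and 85.6, 0.00510 and 0.0756 TPM at D28WO, and H2AC19 at 0.501 and 0.739 TPM at D14 and 0.576, 83.7 and 81.4 TPM at D28WO. Where either copy was high the other was near 0, in both groups, so no change is read from them.

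Glycolysis had no call among 20 genes with limma, yet 16 were lower and 1 higher by the adjusted p alone, and 18 lower at an unadjusted p under 0.05 (median -0.52). LDHA, which turns pyruvate into lactate, was at 1039 and 1244 TPM at D14 and 514, 563 and 665 TPM at D28WO, with a log2 fold change of -0.98 (adjusted p = 5.1e-04). GAPDH was at 1428 and 1428 TPM at D14 and 735, 855 and 928 TPM at D28WO, a log2 fold change of -0.77. The pyruvate kinase PKM was at 955 and 1080.4 TPM at D14 and 660.4, 674 and 776 TPM at D28WO, and the glucose carrier SLC2A1 at 165 and 185 TPM at D14 and 92.7, 93.6 and 114 TPM at D28WO. All D28WO libraries were below D14 for these 4 genes, so GAPDH did not hold still as a reference here. Of 20 hypoxia-responsive genes 1 was called lower and 0 higher (median -0.25). ANGPTL4, an inhibitor of lipoprotein lipase, was at 84.6 and 92.2 TPM at D14 and 19.9, 17.9 and 42.3 TPM at D28WO (log2 fold change -1.79, SE 0.32, adjusted p = 0.00161). VEGFA was at 414 and 429 TPM at D14 and 374, 378 and 376 TPM at D28WO, and STC2, a secreted glycoprotein, at 108 and 114 TPM at D14 and 222, 229 and 215 TPM at D28WO, neither of them called. STC2 had every D28WO library above D14 and a log2 fold change of 0.99, against the sign of the list.

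Genes called in cholesterol synthesis and uptake were all lower, 13 of 23 were lower and 0 higher by the adjusted p alone, and the median was -0.38. EBP, a sterol isomerase, fell from 171 and 165 TPM to 49.1, 44.4 and 75.8 TPM (log2 fold change -1.60, SE 0.18, adjusted p = 7.2e-05). The reductase DHCR7 was at 108 and 104 TPM at D14 and 40.4, 46.4 and 56.3 TPM at D28WO. HMGCS1, an early enzyme, was at 67.3 and 72.7 TPM at D14 and 36.4, 39.5 and 39.0 TPM at D28WO and FDPS at 182 and 187 TPM at D14 and 158, 153 and 172 TPM at D28WO, and neither was called. For HMGCS1 the Untreated level was 41.4, 37.9 and 34.6 TPM, so D28WO lay near Untreated and D14 above it. None of 12 genes of fatty acid synthesis was called with limma, and at an unadjusted p under 0.05 5 were lower and 1 higher, against 16.4% and 21.0% of all genes tested. FASN, which builds palmitate, was at 121 and 109 TPM at D14 and 57.7, 53.4 and 66.0 TPM at D28WO with a log2 fold change of -0.96 (adjusted p = 1.6e-04). None of 6 tested sterol efflux genes and LXR targets was called, with 3 higher and 0 lower at that unadjusted p. ABCA1, the cholesterol exporter, was at 71.8 and 71.5 TPM at D14 and 93.1, 90.3 and 86.7 TPM at D28WO.

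RNA of ATF4-responsive genes was mostly higher, and the supply of amino acids was not measured. Of 16 ATF4-responsive genes, 7 were called higher and 0 lower, and 15 passed the adjusted p alone, with a median of 0.89. CHAC1, which degrades glutathione, was at 47.4 and 39.99 TPM at D14 and 209.7, 222 and 183 TPM at D28WO (log2 fold change 2.20, SE 0.25, adjusted p = 9.1e-05). TRIB3, a pseudokinase that restrains ATF4, was at 36.1 and 24.4 TPM at D14 and 121, 134 and 116 TPM at D28WO (log2 fold change 2.02, SE 0.27, adjusted p = 2.9e-04), and ASNS, the asparagine synthetase, at 181 and 147 TPM at D14 and 445, 436 and 395 TPM at D28WO. SLC7A11, the cystine importer, was at 20.1 and 19.7 TPM at D14 and 61.3, 52.2 and 51.2 TPM at D28WO. These 4 genes stood higher in each D28WO library, by more than the spread within either group. PHGDH, the entry enzyme of serine synthesis, was at 269.7 and 255 TPM at D14 and 508, 453 and 449 TPM at D28WO, past the adjusted p and short of the fold. At D28 CHAC1 was at 92.0, 71.3 and 136 TPM and ASNS at 173, 199.6 and 268 TPM, between D14 and D28WO for CHAC1 and overlapping D14 for ASNS. The unfolded protein response had no call among 14 genes with limma, while 7 were higher and 4 lower by the adjusted p alone. HSPA5, the main chaperone of the endoplasmic reticulum, was at 284 and 279 TPM at D14 and 513, 481 and 404 TPM at D28WO, and ATF6 at 51.7 and 57.5 TPM at D14 and 99.0, 95.4 and 86.6 TPM at D28WO. SDF2L1 had the opposite sign, at 77.2 and 68.6 TPM at D14 and 35.1, 40.1 and 45.3 TPM at D28WO.

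Heat shock proteins were called lower in 2 of 12 genes (0 to 3 over the settings) and higher in 0, and 10 were lower by the adjusted p alone (median -0.52). The 2 called were HSPA1A and HSPA1B, near-identical copies that share reads. The call of HSPA1A ended with a pseudocount of 0.1 and in further settings. HSPA1B was at 80.5 and 80.5 TPM at D14 and 40.9, 33.2 and 42.3 TPM at D28WO. HSPA8, the constitutive member, was at 576 and 584 TPM at D14 and 294, 265 and 317 TPM at D28WO, a log2 fold change of -0.99 just short of the limit. Of 14 antioxidant and iron genes 1 was called higher and 0 lower (median 0.54). FTH1, the ferritin heavy chain that stores iron, was at 1126 and 1090.4 TPM at D14 and 2939, 2698 and 2540.1 TPM at D28WO (log2 fold change 1.30, SE 0.13, adjusted p = 2.8e-05), whereas the light chain FTL was at 472 and 463 TPM at D14 and 549.7, 504 and 485 TPM at D28WO and was not called. With quantile normalization its log2 fold change was 0.66 and the call ended. Pseudogenes of FTH1 can share its reads. AIFM2, which protects membranes from lipid peroxides, was at 38.4 and 36.6 TPM at D14 and 73.5, 74.4 and 68.5 TPM at D28WO, short of the fold. Of 20 lysosome and autophagy genes 1 was called higher and 0 lower (median 0.10). GABARAPL1, an adaptor of autophagosomes, was at 79.8 and 80.6 TPM at D14 and 215, 189 and 191 TPM at D28WO (log2 fold change 1.29, SE 0.08, adjusted p = 1.5e-06), and SQSTM1, the cargo receptor p62, at 251.04 and 243 TPM at D14 and 404, 425 and 371 TPM at D28WO, was past the adjusted p alone.

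Components of PI3K, AKT and mTOR signalling had no call among 24 genes with limma, and 8 were higher and 2 lower at an unadjusted p under 0.05, against 21.0% and 16.4% of all genes tested (median 0.12). AKT1, a kinase activated by PI3K, was at 195 and 189 TPM at D14 and 167, 166 and 171 TPM at D28WO (adjusted p = 0.318). Among 18 FOXO-responsive genes and growth factor receptors 2 were called higher and 1 lower. Over the settings 1 to 2 were called higher and 1 to 2 lower, and INSR lost its call in leave-one-out fits. The insulin signalling genes IRS2 and INSR were at 9.24 and 9.35 TPM at D14 and 24.5, 25.1 and 24.7 TPM at D28WO (log2 fold change 1.32, SE 0.17, adjusted p = 2.1e-04) and at 9.95 and 11.4 TPM at D14 and 29.2, 26.8 and 24.9 TPM at D28WO. KLF6, a zinc finger factor, was at 146 and 212 TPM at D14 and 77.5, 56.8 and 75.002 TPM at D28WO (log2 fold change -1.34, SE 0.20, adjusted p = 5.8e-04). Of 18 immediate early genes 2 were called lower and 0 higher (median -0.27). FOS was at 346 and 366 TPM at D14 and 107, 109 and 121 TPM at D28WO (log2 fold change -1.66, SE 0.11, adjusted p = 2.5e-06) and FOSB at 94.9 and 113 TPM at D14 and 12.9, 21.6 and 20.8 TPM at D28WO, both subunits of AP-1. FOS stood at 129, 152 and 134 TPM in Untreated and 209, 240.1 and 181 TPM at D28, so both D14 libraries were the high ones. JUN was at 181 and 173 TPM at D14 and 109, 117 and 119 TPM at D28WO, short of the fold.

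Of 13 YAP-TEAD targets only AJUBA, a LIM-domain scaffold, was called, at 24.7 and 23.3 TPM at D14 and 67.0, 66.7 and 50.7 TPM at D28WO. Of 21 tested metalloproteases and inhibitors ADAMTS5, which cleaves aggrecan, and the collagenase MMP1 were called higher and MMP15 lower. ADAMTS5 was at 13.1 and 11.6 TPM at D14 and 57.2, 54.2 and 51.4 TPM at D28WO (log2 fold change 2.05, SE 0.20, adjusted p = 2.8e-05), and MMP1 at 14.4 and 9.502 TPM at D14 and 43.6, 44.9 and 39.8 TPM at D28WO. ADAMTS5 was at 11.4, 17.1 and 10.5 TPM at D28, near D14. Of 25 tested integrins and laminins, LAMA1 was called higher, at 9.70 and 10.1 TPM at D14 and 38.0, 44.9 and 35.8 TPM at D28WO (log2 fold change 1.89, SE 0.21, adjusted p = 6.8e-05), and ITGA10 lower. The abundant integrin ITGB1 was at 379.5 and 385 TPM at D14 and 354, 362 and 346 TPM at D28WO and was not called. SPARC, a matrix glycoprotein, was the only call among 21 other matrix proteins, of which 7 were lower and 0 higher by the adjusted p alone. SPARC was at 677 and 716 TPM at D14 and 306, 332 and 389.6 TPM at D28WO (log2 fold change -1.03, SE 0.11, adjusted p = 8.1e-05). Its call ended with quantile normalization and in leave-one-out fits. By the adjusted p alone 11 of 33 tested collagen chains were lower and 3 higher, and 3 were called higher (COL9A2, COL11A1 and COL22A1) and 4 lower (COL1A1, COL5A3, COL17A1 and COL27A1), and the calls of COL11A1 and COL17A1 ended with a replicate block. Over the settings 1 to 3 chains were called higher and 3 to 6 lower. COL9A2 was at 3.45 and 4.09 TPM at D14 and 19.04, 20.6 and 17.5 TPM at D28WO and COL5A3 at 5.77 and 8.22 TPM at D14 and 1.57, 0.981 and 1.53 TPM at D28WO. COL1A1, the main chain of type I collagen, was at 260.4 and 287 TPM at D14 and 119, 119 and 149 TPM at D28WO, while COL6A3 was at 439 and 424 TPM at D14 and 431, 422 and 389 TPM at D28WO, with overlapping groups.

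Of 22 mesenchymal genes CEBPD, a factor of the acute-phase response, was called higher, at 36.0 and 33.2 TPM at D14 and 76.0, 84.6 and 76.8 TPM at D28WO (log2 fold change 1.17, SE 0.15, adjusted p = 1.9e-04), and SNAI1 lower, at 6.32 and 4.79 TPM at D14 and 2.24, 1.52 and 3.20 TPM at D28WO, a call lost in several settings. Of 14 tested neural stem and glial genes 2 were called higher and 2 lower, with a median of 0.18 that ran from -0.02 with quantile normalization to 0.67 with a filter of 1 TPM. OLIG2, a factor of the oligodendrocyte lineage, was at 4.20 and 5.16 TPM at D14 and 26.1, 32.0 and 21.99 TPM at D28WO (log2 fold change 2.27, SE 0.41, adjusted p = 0.00185), and BCAN, a brain proteoglycan, at 7.499 and 5.13 TPM at D14 and 12.3, 18.3 and 18.8 TPM at D28WO. CSPG4, a surface proteoglycan of glial progenitors, was at 76.7 and 84.3 TPM at D14 and 31.8, 34.3 and 42.3 TPM at D28WO, and HES1, a target of Notch, at 21.6 and 21.2 TPM at D14 and 8.03, 7.20 and 7.22 TPM at D28WO. OLIG2 and CSPG4, both known from the same progenitors, therefore had opposite signs. OLIG2 was at 7.01, 4.98 and 10.1 TPM at D28, nearer D14.

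Abundant housekeeping lists had no calls with limma. Of 83 tested cytosolic ribosomal protein genes 31 were lower by the adjusted p alone and 42 at an unadjusted p under 0.05 (median -0.23), with RPS28 at 412 and 397 TPM at D14 and 247, 239 and 299 TPM at D28WO. The nuclear genes of the respiratory chain, 83 of them tested, had 37 lower by the adjusted p and 50 at an unadjusted p under 0.05 (median -0.29), with NDUFB6, of complex I, at 98.9 and 91.1 TPM at D14 and 54.8, 59.1 and 66.0 TPM at D28WO. Mitochondrially encoded genes had 4 of 12 lower at an unadjusted p under 0.05, against 16.4% of all genes tested, and all 12 had every D28WO library below both D14 libraries (median -0.32). MT-CO2, of cytochrome oxidase, was at 774 and 773 TPM at D14 and 498, 516 and 525 TPM at D28WO. In the nucleolar genes that respond to MYC, 8 of 22 were lower and 1 higher at an unadjusted p under 0.05, beside the same shares of 16.4% and 21.0% (median -0.12). NPM1 was at 494 and 459.9 TPM at D14 and 410.4, 426 and 392 TPM at D28WO. Of 8 tested metallothioneins, which bind zinc, MT1G was called higher, although these copies can share reads. Its call ended with quantile normalization, with a pseudocount of 0.1 and without D14 replicate 3 or D28WO replicate 3. MT2A was at 637 and 599 TPM at D14 and 621, 638 and 642 TPM at D28WO, with overlapping groups. Olfactory receptors, whose summed level was 34.7 and 40.9 TPM at D14 and 53.9, 53.8 and 60.9 TPM at D28WO, had 16 of 405 genes past the filter, no call and a median of 0.23, and 1 was higher at an unadjusted p under 0.05.

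**Figure D5:**
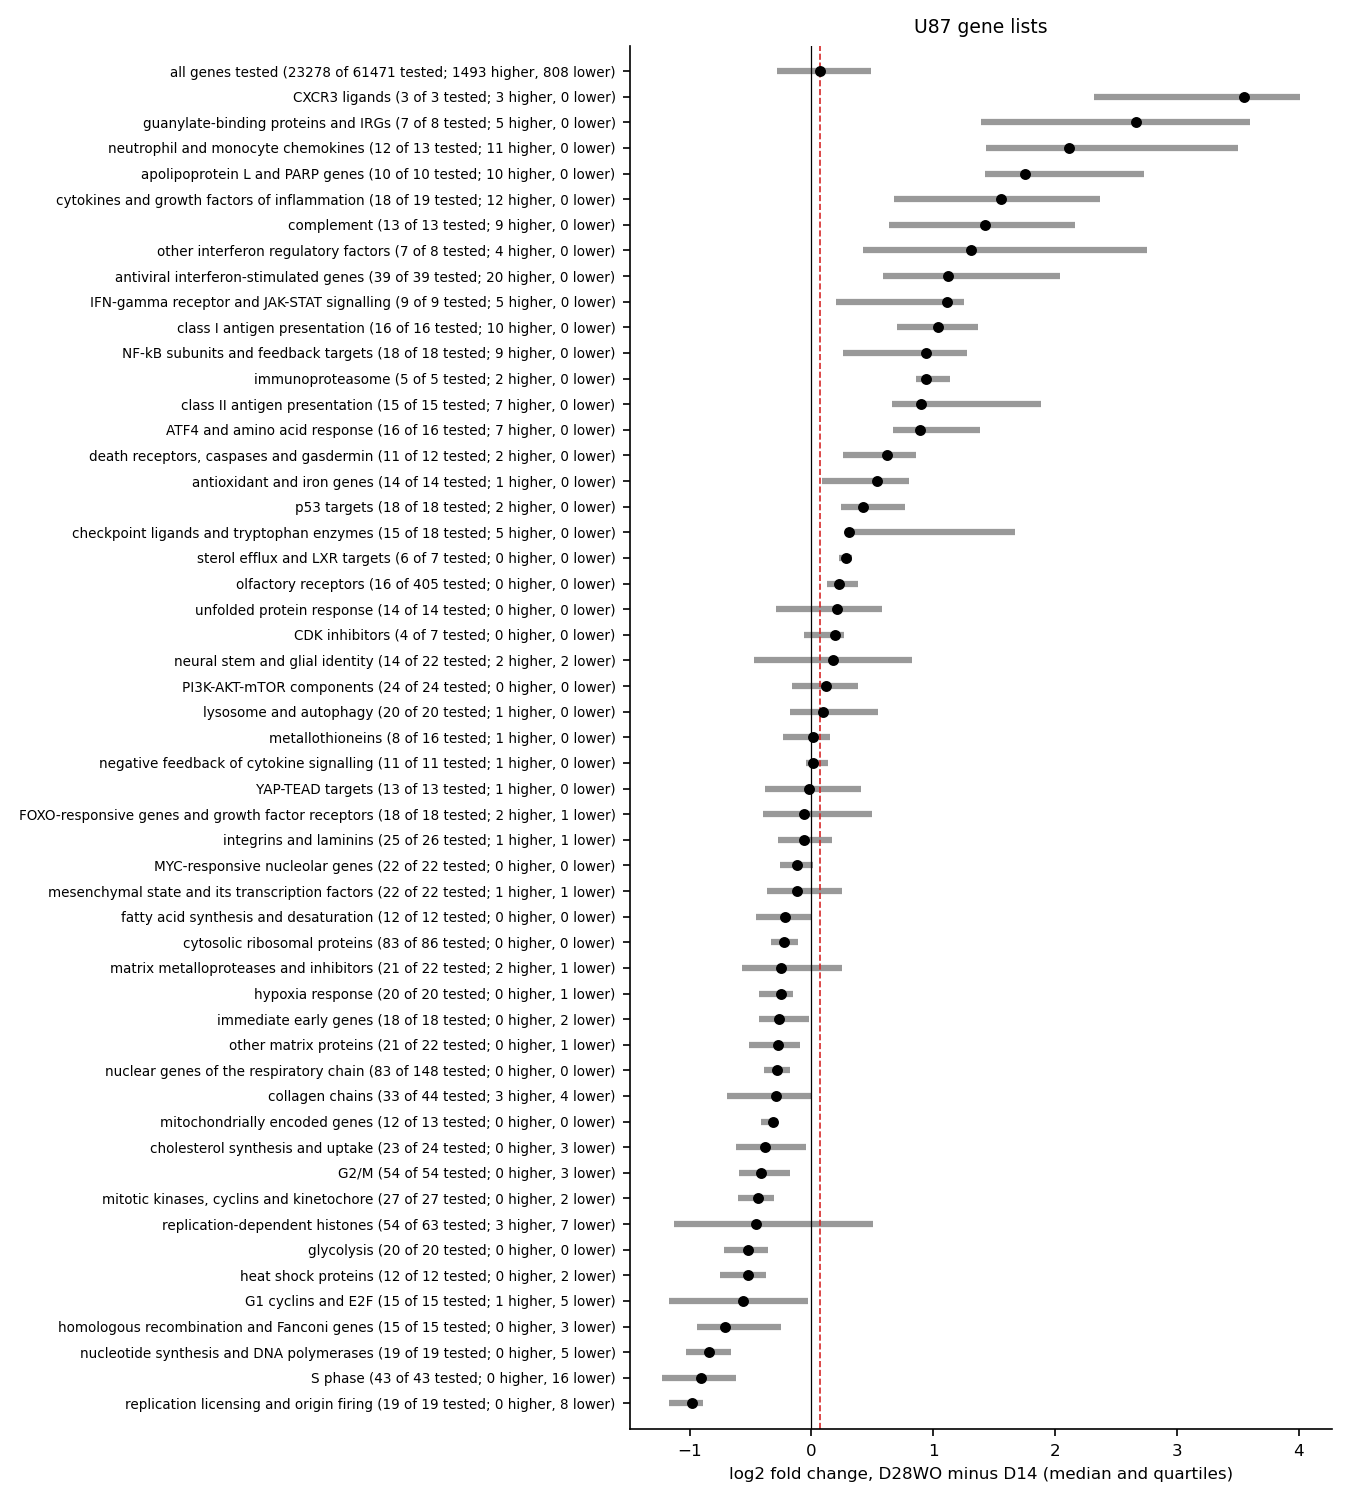
Median (point) and quartiles (bar) of the log2 fold change of D28WO over D14 for each gene list (horizontal), with the lists (vertical) in the order of their medians and the counts tested and called in brackets. The solid line marks 0 and the dashed line the median of all genes tested, 0.07. Interferon and inflammation lists lie at the top, from CXCR3 ligands down, and replication licensing lies at the bottom, at -0.98. All CXCR3 ligands passed the filter through the D28WO libraries alone, so their count in brackets is not read as a result. The median of the CXCR3 ligands, and so their place, rests on the pseudocount.

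The medians of lists were also set beside continued exposure. Those that follow are of D28WO over D14, D28 over D14 and D28WO over D28, which share libraries and are given as values only. For all genes tested they were 0.07, -0.00 and 0.07. For the list of guanylate-binding proteins and IRGM they were 2.66, 2.51 and 0.14. For class I antigen presentation they were 1.04, 0.90 and 0.13, and for antiviral genes 1.12, 1.31 and -0.06. In these interferon lists D28 and D28WO thus lay at similar distances from D14. Neutrophil and monocyte chemokines had medians of 2.11, 1.44 and 0.98, and ATF4-responsive genes 0.89, 0.30 and 0.72. For replication licensing they were -0.98, -0.21 and -0.86, for S phase genes -0.91, -0.17 and -0.75 and for glycolysis -0.52, 0.05 and -0.57. In these last lists D28 lay near D14, and the libraries labelled D28WO stood apart from both.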

How the data were processed

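RNA of U87 and U251 cells was sequenced after TruSeq preparation. Per the notes deposited by the authors, reads were checked with FastQC, trimmed with Trim Galore, aligned to GRCh38 with STAR, counted with featureCounts and normalized with edgeR. Their own tests used limma with voom and are not used here. The authors deposited a table of TPM values for each line, and how TPM were computed and on which strand reads were counted was not stated. Another sheet names such matrices CPM. The 2 U87 columns with the same name were left out because neither could be matched to a sample.

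Genes with a mean TPM of at least 0.5 over the 5 libraries were tested on log2(TPM + 1) with limma 3.58.1 in R 4.3.3 (lmFit, eBayes with trend), with the 13 uniquely named U87 libraries as 5 groups in the same fit. Scripts were tested on simulated data. Tables and figures used Python 3.11.15, numpy 2.4.6, pandas 2.3.3 and matplotlib 3.10.9, the cell cycle lists came from Seurat 5.3.0, and gene names from GENCODE release 44. Since TPM keep no depth, no precision per library was computed.

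Named genes are the 10 steepest rises and 10 steepest falls among called genes without overlap and with at least 5 TPM in the higher group, the 4 tested members with the largest change and the 2 most abundant of each list, all members of lists of up to 5 genes, the markers, and 14 genes set by name. The receptor chains, JAK1, STAT2, KYNU, POLE, CCND3, E2F1, CDT1, CXCL3, CD55 and further members of counts of up to 5 were added after their values were seen. Results of some genes are not reported here. Members and lists were chosen with earlier results of these data known. Alternatives were a pseudocount of 0.1, other filters, quantile normalization, median-ratio size factors, the 5 libraries alone, a replicate block, array weights, leave-one-out fits and the adjusted p alone.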

Additional observations from a re-analysis of the deposited data

Results flagged for a closer look

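Of the genes named in the text, the following had opposite signs in the cell lines. Every library labelled D28WO lay above every library labelled D14 in U87 and below every such library in U251. Each gene was called in both lines. The share of all genes tested that meet this rule is not given, so the number of these genes is not read as a result. Log2 fold changes in U87 and then in U251 were, for the chemokines, CCL2 1.71 and -2.46, CCL20 3.43 and -1.96, CXCL2 1.46 and -1.55, CXCL3 1.87 and -1.13 and CXCL8 1.37 and -2.34. For inflammatory and acute-phase genes they were IL1A 2.78 and -1.25, IL1B 1.64 and -2.03 and SAA1 5.10 and -1.24. Outside inflammation they were CLDN1 4.69 and -1.37, E2F7 1.34 and -1.51, LAMA1 1.89 and -1.12 and MMP1 1.78 and -2.99. Here CLDN1, E2F7, LAMA1 and MMP1 encode a tight junction protein, a repressor of cell cycle genes, a laminin chain and a collagenase. SAA1 passed the filter in U87 through the D28WO libraries alone. Its fold there rests on the pseudocount, with log2 values from 4.88 to 7.52 over the settings. The tables of the lines were normalized separately, and the difference between the lines was not tested.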

How the results depend on the processing

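The counts of 1493 genes higher and 808 lower became 1544 higher and 806 lower with a pseudocount of 0.1, 1318 higher and 716 lower without the filter, 1431 higher and 745 lower with a filter of 1 TPM, 1443 higher and 778 lower with the filter over all U87 libraries, and 3366 higher and 2678 lower by the adjusted p alone. Quantile normalization gave 1140 higher and 1137 lower, median-ratio size factors 1345 higher and 865 lower, the 5 libraries alone 1505 higher and 794 lower, and array weights 1612 higher and 873 lower. Leave-one-out fits gave 1104 to 1427 higher and 631 to 890 lower, and where D14 kept a lone library it was assumed to vary like the other groups. No gene was called in opposite directions. The cause of these shifts was not tested.

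The replicate block gave 1330 higher and 771 lower. Samples of different groups share only a replicate number. Over 23 same-numbered pairs the residual correlations ran from -0.0572 to 0.0526 with 0 over 0.1, and the 2 pairs of D14 and D28WO gave 0.00121 and 0.0332, so the block was kept as an alternative.

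Of 58 lists 51 kept the sign of their median in all 14 settings, and it turned in at least 1 for negative feedback, FOXO-responsive genes, YAP-TEAD targets, neural stem and glial identity, metallothioneins, and the T and NK cell and epithelial markers. Of 158 called genes named in the text 126 stayed called throughout, and 32 lost the call in at least 1 setting: BCAN, CASP4, CDC20, CDCA3, CDT1, COL11A1, COL17A1, COL22A1, COL27A1, CXCL9, E2F2, ENSG00000258581, ENSG00000267305, EPCAM, FANCA, FTH1, GTSE1, H2AC16, H2BC13, H3C4, H4C14, HSPA1A, HSPA1B, INSR, IRF7, LIG1, MT1G, POLE, RN7SL499P, SNAI1, SOCS2 and SPARC. Those lost in 5 or more were COL11A1, COL17A1, ENSG00000267305, H2AC16, H2BC13, HSPA1A, SNAI1 and SOCS2. Of 64 not called, 10 passed in at least 1 setting. Small log2 fold changes of uncalled genes turned sign: CD44 (0.0405 with quantile normalization), COL6A3 (0.0213 with quantile normalization), IRF3 (-0.0232 with median-ratio size factors, -0.0368 to 0.103 in leave-one-out fits), ITGB1 (0.00266 with quantile normalization), MT2A (-0.0201 with median-ratio size factors, -0.0625 with a replicate block, -0.00827 to 0.0814 in leave-one-out fits), NT5E (0.0448 with quantile normalization, -0.0458 to 0.0118 in leave-one-out fits) and PTPN11 (-0.0446 with median-ratio size factors, -0.0257 to 0.0490 in leave-one-out fits). The cause was not tested. TPM keep no depth, so what depth limits could not be computed, and D14 rests on 2 libraries, for which an exact test of 2 against 3 libraries has 10 splits and a smallest p of 0.1.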
